A study of Mytilus galloprovincialis with 18 samples.

Results

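Gills of the Mediterranean mussel Mytilus galloprovincialis exposed to the highest and the lowest dose of a metal mixture were compared directly, 200 nM against 50 nM, each for 48 h. The mixture held cadmium, copper and mercury in equal molar amounts. The comparison rests on 12 of the 18 arrays of the series, from 6 of its 9 adult mussels, 3 at each dose, of mixed sex and with no age or genotype stated. The 3 mussels at 100 nM entered the fit only through the estimate of the spread. Each mussel had 2 spotted cDNA arrays with opposite dyes (A and B), on which its gill RNA competed with RNA pooled from the gills of 5 unexposed mussels. Both arrays were averaged to 1 log2 mussel/pool ratio per probe. Because every array shares the pool, it cancels in the difference between the doses, so that a difference of 1 on the log2 scale means a ratio to the pool that was 2 times higher at 200 nM. All 1920 probes of the array, with IDs starting Myt01, were tested. The paper counts fewer mussel probes on this array and mentions unrelated controls, so some of the 1920 may not be mussel transcripts. That limit applies to every share of all probes and to the probes with no description. According to the methods each dose was kept in a single tank, so dose and tank cannot be told apart, and the test measures only the spread between mussels. In whole gill, more transcript per cell and more cells of a type cannot be told apart either.

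Cadmium, copper and mercury bind the thiol groups of proteins and disturb their folding. Cells are known to answer with metallothioneins, which hold metal ions on their cysteines, with heat shock proteins, which refold damaged proteins, with glutathione S-transferases and ferritin, and with the ubiquitin, proteasome and autophagy routes that remove proteins beyond repair. The gill is the first tissue to meet dissolved metal in a mussel. Its filaments are covered by cilia, whose tubulins and dyneins are among the typical transcripts of the tissue, and 15 probes for tubulin, actin and cilia proteins were among those described. The files name no genes. Descriptions were taken from the study's tables, which cover 434 probes that the study selected for their response in these same mussels, and from a figure legend with 12 further probes, so the gene lists below are not independent evidence of a direction. Of the 434, 172 are given as without similarity to a known protein. Probe sequences and genome positions were not used here.

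One mussel stood apart. In 50 nM replicate 3 the ratios, averaged over both arrays, were opposed to those of each other animal. Its correlation with 50 nM replicates 1 and 2 was -0.38 and -0.17 across probes, and with the 200 nM mussels it was -0.42, -0.28 and -0.32, while the other 8 mussels correlated above 0 with each other, and the correlations of the 200 nM mussels among themselves were 0.43, 0.52 and 0.43. The opposition was present on average in both dye orientations, though not to each animal. The mean correlation to the other mussels was -0.14 in arrays A (-0.31 to 0.06) and -0.14 in arrays B (-0.25 to 0.03). Its own arrays A and B correlated at 0.353 against a median of 0.295 over all mussels. Labels and file headers give the dyes of its arrays in the same way as for the others, so its direction was kept as labelled. Whether mussel and pool were exchanged on both arrays of this mussel before deposit was not tested, and an exchange would turn the sign of every value given for it. Its part in each result is shown by giving the difference also without it (2 against 3 mussels) and, for the main counts and some lists and probes, with its sign turned. By other measures replicate 2 of 50 nM stood out more. It was farthest from the 50 nM median in 738 probes (38.4%), replicate 3 in 611 (31.8%) and replicate 1 in 571 (29.7%). Its array weight was the lowest of the 9 mussels (0.636, against 1.03 for replicate 3). Without replicate 3 the 50 nM side rests on replicates 1 and 2.

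**Figure D1:**
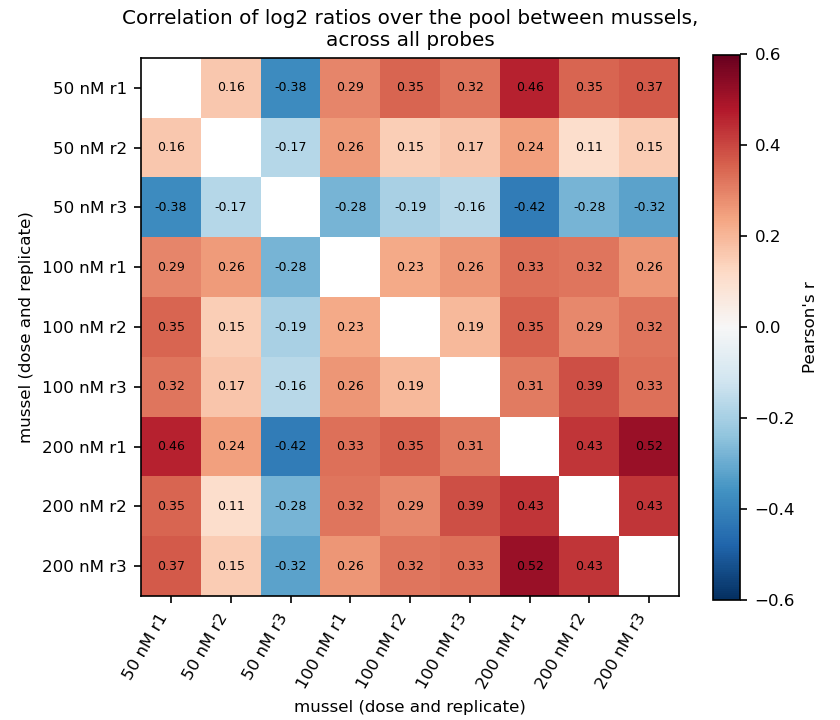
Pearson's r between mussels of their log2 mussel/pool ratios across all 1920 probes, with mussels on both axes (r1 to r3 are replicates), red for values above 0 and blue below. Every value of 50 nM replicate 3 is below 0, from -0.38 with 50 nM replicate 1 to -0.16 with 100 nM replicate 3 and -0.42 with 200 nM replicate 1.

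With 3 mussels a side no probe passed. The smallest adjusted p of limma (Benjamini-Hochberg over 1920 probes) was 0.304, against a threshold of 0.05. Unadjusted, 195 probes (10.2%) had a p under 0.05, 96 with the higher ratio at 200 nM (5.00%) and 99 with the lower (5.16%). The 3 values at 200 nM lay wholly above the 3 at 50 nM in 139 probes (7.24%) and wholly below in 151 (7.86%). Without 50 nM replicate 3 no probe passed either (smallest adjusted p 0.638), with 137 probes (7.14%) at an unadjusted p under 0.05, 53 higher (2.76%) and 84 lower (4.38%). With its sign turned the count passing was again 0 (smallest adjusted p 0.506), with 140 probes (7.29%) at an unadjusted p under 0.05, 59 higher (3.07%) and 81 lower (4.22%). Leaving out 50 nM replicate 1 instead brought the smallest adjusted p to 0.0503, for Myt01-014C10 and Myt01-003B05. All differences below are therefore values that did not pass this test, given with the 95% interval where a probe is described in full.

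The difference was above 0 in 889 probes (46.3%) and below 0 in 1031 (53.7%), and above 0 in 936 (48.8%) without 50 nM replicate 3. It ranged from -2.07 to 3.67 (median -0.02), and 17 probes exceeded 1 in the upward and 15 in the downward direction. All 32 had the same sign in arrays A and in arrays B taken alone, where over all probes 1136 (59.2%) did. The 32 were picked by the size of the average of both orientations, so their agreement in sign follows largely from the choice. Without 50 nM replicate 3, 13 probes were above 1 and 8 below -1, and 1681 probes (87.6%) kept the sign of their difference. The counts differed with the study's own selection. Of the 434 probes in its tables, 85 were higher and 56 lower at an unadjusted p under 0.05 (32.5% in all), and of the 1474 with no description 11 were higher and 42 lower (3.60%). Called counts in the gene lists below are to be read beside these shares. Both fits shared 104 probes at an unadjusted p under 0.05, which is 53.3% of the 195 and 75.9% of the 137, 43 of them higher and 61 lower at 200 nM. The spread within a dose was alike at both, with a median SD over probes of 0.27 at 50 nM and 0.23 at 200 nM. Without replicate 3 it was 0.24 at 50 nM, but an SD of 2 values tends to be lower than one of 3, so a tighter spread cannot be read from it.

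**Figure D2:**
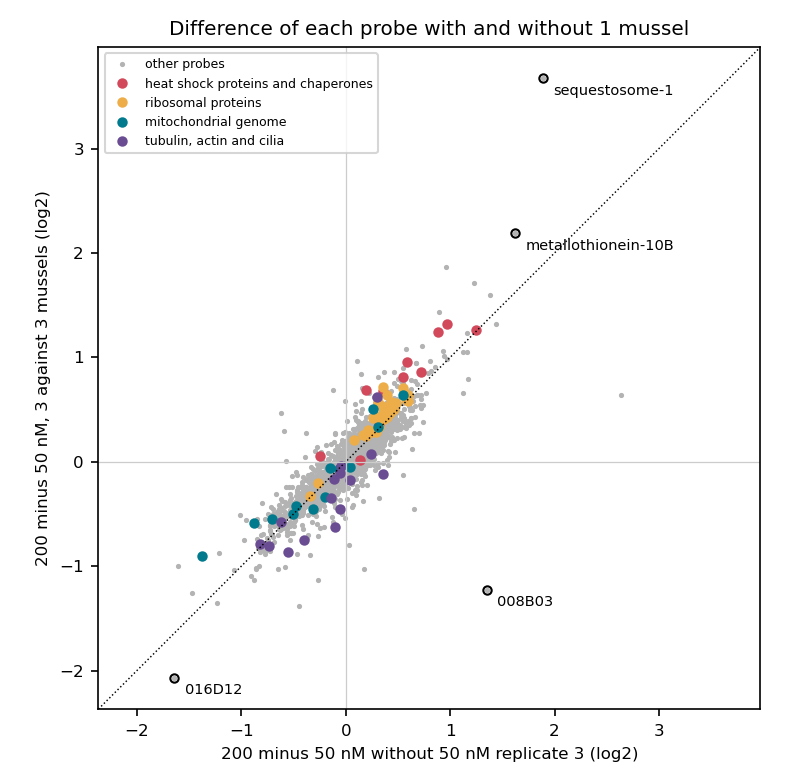
Difference of each of 1920 probes between 200 and 50 nM, with 3 against 3 mussels (vertical axis, log2) and without 50 nM replicate 3 (horizontal axis, log2), with 4 gene lists in colour and the dotted line marking equal values. Sequestosome-1 lies farthest above the line (3.67 against 1.89), and Myt01-008B03 changes side (-1.22 against 1.35).

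Heat shock proteins and chaperones had the higher ratio at 200 nM in all 11 of their probes (median difference 0.81, against -0.02 over all probes). Of these, 5 had an unadjusted p under 0.05, beside 5.00% of all probes and 85 of the 434 that the study selected. The same number had values at 200 nM wholly above those at 50 nM, beside 7.24% of all probes. Without 50 nM replicate 3 the median was 0.55, with 10 of 11 above 0 and 4 at an unadjusted p under 0.05, and with its sign turned it was 0.53. The median ratio of the list to the pool was 1.26, 1.07 and 0.95 in the 200 nM mussels, and 0.63, 0.32 and -0.19 in those at 50 nM.

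The heat shock protein HSP70 (Myt01-014B11), an inducible chaperone that keeps unfolded proteins from clumping, was at 0.72, 0.29 and -0.55 in the 50 nM mussels and at 1.82, 1.14 and 1.48 at 200 nM. The groups did not overlap, and the 100 nM mussels were at 1.24, 0.92 and 0.81, above every 50 nM mussel. The difference was 1.32 ± 0.31 (SE; interval 0.65 to 1.99; limma adjusted p = 0.304), and 0.97 without 50 nM replicate 3 (0.40 to 1.54). HSP90 (Myt01-016G09), which matures signalling proteins, had 0.63, 0.41 and 0.11 at 50 nM and 1.20, 1.31 and 1.24 at 200 nM. Its 3 values at 200 nM were within 0.11 of each other, and the difference was 0.86 (0.27 to 1.46; adjusted p = 0.385), or 0.73 without replicate 3. Its second probe (Myt01-015D01) gave 0.81, with the groups again apart. The small heat shock protein of Mytilus, a chaperone that works without ATP, gave 1.26 (Myt01-011G05) and 1.24 (Myt01-013C12). In the first probe all 50 nM mussels were close together, at 0.89, 0.53 and 0.69, and those at 200 nM higher and wider, at 2.93, 1.29 and 1.67, so that 50 nM replicate 3 did not set the value (1.25 without it). In the second probe 50 nM replicate 1, at 1.58, lay among the 200 nM values. The FK506-binding protein (Myt01-012A04), a prolyl isomerase, was at 0.63, 0.32 and -0.65 against 1.12, 1.07 and 1.00, a difference of 0.96 (0.31 to 1.61), while the 100 nM mussels, at 1.46, 1.39 and 0.89, were as high as those at 200 nM. The constitutive cognate HSC70 (Myt01-010B03; 0.69, interval -0.23 to 1.61) and chaperonin subunit 7 (Myt01-014B06; 0.67, -0.11 to 1.45) overlapped between the doses.

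**Figure D3:**
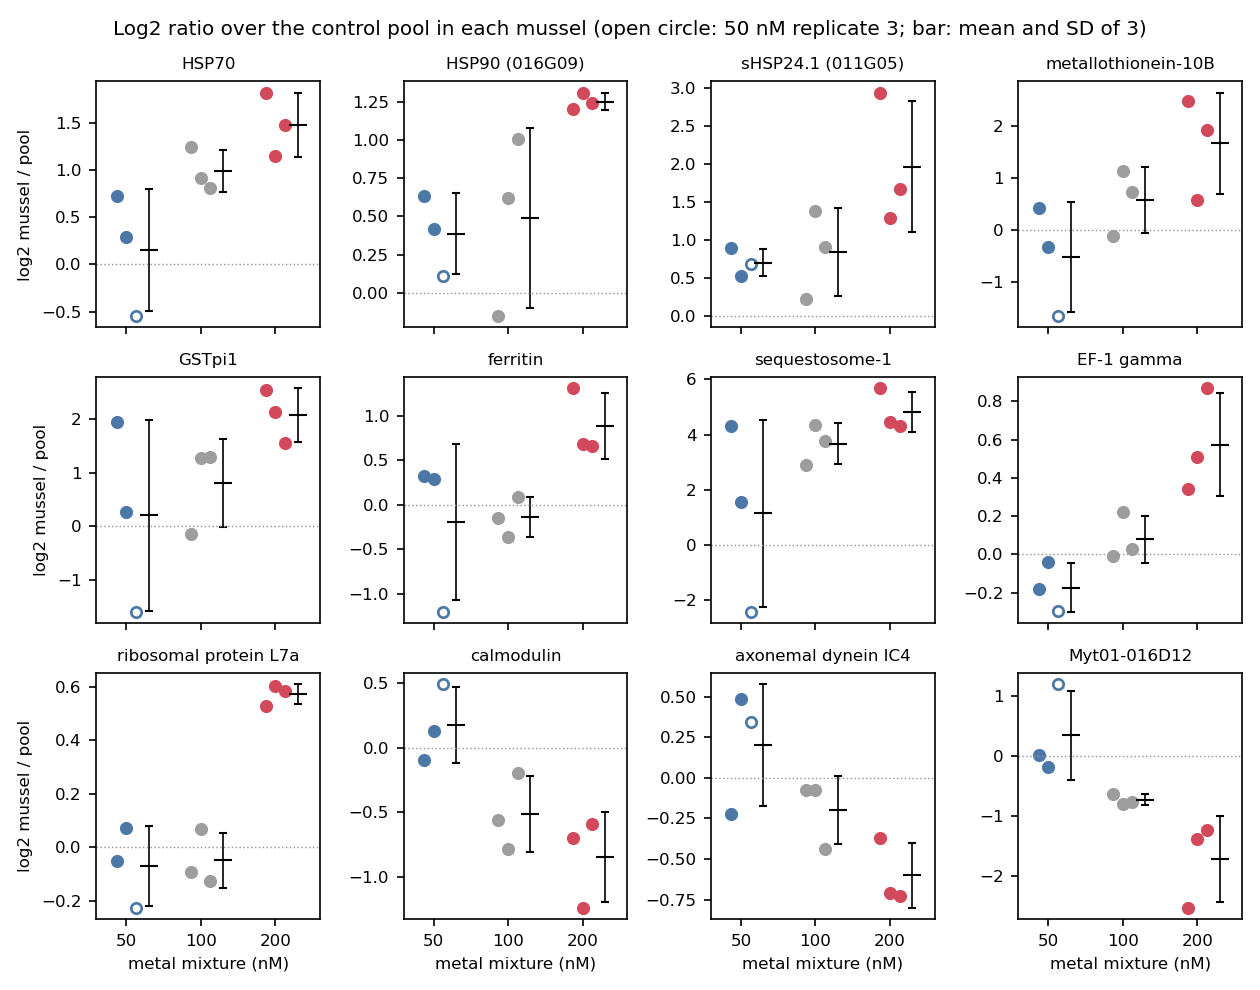
Log2 mussel/pool ratio (vertical axis, own scale in each panel) of 12 probes in each of 9 mussels by dose of the mixture in nM, where points are mussels, the open circle is 50 nM replicate 3, and the bar gives mean and SD of 3 mussels. For HSP70 the 200 nM mussels lie between 1.14 and 1.82, all above those at 50 nM, and for sequestosome-1 50 nM replicate 1 lies at the level of 2 of the 200 nM mussels (4.32).

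Of the 7 metal binding and antioxidant probes, 6 were higher at 200 nM (median difference 0.56, 0.18 without 50 nM replicate 3). Of these, 3 had an unadjusted p under 0.05, beside 85 of the 434 that the study selected. Without 50 nM replicate 3, 2 of the 7 had such a p, and with its sign turned 0, with 5 of 7 higher. Metallothionein-10B (Myt01-016C08) had a difference of 2.19 ± 0.56 (SE; 0.96 to 3.42; adjusted p = 0.315). Its ratios were 0.42, -0.32 and -1.66 at 50 nM, -0.11, 1.13 and 0.72 at 100 nM, and 2.48, 0.59 and 1.93 at 200 nM. The groups did not overlap, with 50 nM replicate 1 (0.42) close to 200 nM replicate 2 (0.59), and without replicate 3 the difference was 1.62 (0.48 to 2.75), and with its sign turned 1.08. Ferritin (Myt01-013D11), which stores iron, was at 0.33, 0.29 and -1.21 against 1.31, 0.68 and 0.66, a difference of 1.08 that came to 0.58 without replicate 3. Glutathione S-transferase pi (Myt01-010C12), which couples glutathione to reactive compounds, had 1.95, 0.27 and -1.60 at 50 nM and 2.54, 2.12 and 1.55 at 200 nM. Its difference of 1.87 was 0.96 without replicate 3, with an interval that included 0 (-0.21 to 2.14), and 50 nM replicate 1 lay among the 200 nM mussels.

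Sequestosome-1 (Myt01-007D04), the receptor that carries ubiquitin-tagged proteins into autophagosomes, had a difference of 3.67 ± 1.23 (SE; 0.99 to 6.36; adjusted p = 0.385). The 200 nM mussels were at 5.67, 4.47 and 4.32. Of the 100 nM mussels, at 2.90, 4.36 and 3.76, 1 lay just above the lowest 200 nM mussel and the others below all of them. The 50 nM mussels were spread over 4.32, 1.54 and -2.43, so the groups overlapped at 50 nM replicate 1. Arrays A and B of replicate 3 gave -2.40 and -2.46, and 2 of its 24 spots over the 12 arrays were saturated. Without this mussel the difference was 1.89 (0.33 to 3.45), and with its sign turned 2.05. The value of 3.67 was the highest of all probes with this mussel as labelled, while without it and with its sign turned the highest was that of Myt01-005H11, a probe without similarity. That probe was at -3.97, -3.16 and 2.42 in the 50 nM mussels and at -2.96, 2.46 and -2.29 at 200 nM, so 1 mussel of each dose was far above the others. Its difference was 0.64 (-2.81 to 4.08), 2.63 without 50 nM replicate 3 and 2.25 with its sign turned, but -1.06 without 200 nM replicate 2. The other 3 probes of the ubiquitin and autophagy list were also higher at 200 nM, by 0.47 to 0.90 (list median 0.72, 0.51 without replicate 3). Polyubiquitin (Myt01-006B11) was at 0.62, 0.29 and -0.60 in the 50 nM mussels and at 2.00, 0.36 and 0.65 at 200 nM, so its groups overlapped. Of 10 proteasome probes 9 were higher (median 0.35). At an unadjusted p under 0.05 were 2, near the share among the probes that the study selected (85 of 434). Proteasome alpha type 2 (Myt01-013D06), of the ring that admits the substrate, was at 0.42, 0.23 and -0.38 against 1.17, 0.58 and 0.70. The median of the proteasome list was 0.08 without 50 nM replicate 3, with 6 of 10 above 0 and 0 at an unadjusted p under 0.05. All 9 probes of the secretory pathway were higher (median 0.43), 2 at an unadjusted p under 0.05, which is also near 85 of 434. Without replicate 3 all 9 were again above 0 (median 0.23), with 0 at such a p. They were led by ADP-ribosylation factor 2 (Myt01-001H12), whose groups overlapped, at 0.62 and by SEC63 (Myt01-018G07), a partner of the protein channel of the endoplasmic reticulum, at 0.59 (-0.01, 0.25 and -0.21 against 0.73, 0.51 and 0.55).

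The ribosomal proteins, which build the machine that makes proteins, lay close together. Of 34 probes, 32 were higher at 200 nM, 29 with the groups wholly apart, beside 7.24% of all probes, and 21 at an unadjusted p under 0.05, beside 5.00% of all probes and 85 of the 434 that the study selected. Their median difference was 0.47 and the highest 0.71. The list's median ratio was 0.29, 0.25 and 0.46 at 200 nM, 0.05, 0.07 and 0.04 at 100 nM, and 0.08, -0.05 and -0.23 at 50 nM, and in 27 of 34 probes the 100 nM mean lay between the other means, as in 798 of 1920 probes (41.6%). Without 50 nM replicate 3 the same number, 32, were above 0 with a median of 0.36, but 5 had an unadjusted p under 0.05, and with its sign turned the median was 0.26, with 2 higher and 1 lower at such a p. Ribosomal protein L7a (Myt01-010C09) had -0.05, 0.07 and -0.23 at 50 nM and 0.53, 0.60 and 0.58 at 200 nM. Its difference of 0.64 (0.26 to 1.02; adjusted p = 0.328) was 0.56 without replicate 3. Ribosomal protein S7 (Myt01-014A05) had close values in both groups, -0.27, -0.19 and -0.18 against 0.54, 0.25 and 0.32, so that its difference was 0.58 with replicate 3 and 0.60 without. The exceptions were L4 (Myt01-014C04; -0.20) and S24 (Myt01-017F04; -0.33), whose 200 nM values lay wholly below those at 50 nM.

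Of 12 translation factors 9 were higher at 200 nM (median 0.48), 7 at an unadjusted p under 0.05, beside 85 of the 434 that the study selected. Without replicate 3, 7 were higher and 3 at such a p (median 0.32), and with its sign turned 1 was (median 0.24). Elongation factor 1 gamma (Myt01-012F11), part of the complex that recharges elongation factor 1 alpha, was below the pool in all 50 nM mussels, at -0.18, -0.04 and -0.30, and above it in all at 200 nM, at 0.34, 0.51 and 0.87. The difference was 0.75 (0.32 to 1.17; adjusted p = 0.317), and 0.69 without replicate 3. Elongation factor 1 alpha itself, which brings aminoacyl-tRNA to the ribosome, was on the array with 3 probes, which gave 0.79 (Myt01-011G02), 0.62 (Myt01-014A02) and 0.83 (Myt01-014G06). In each of them (the first with saturated spots in 5 of 24) replicate 3 was the low mussel at 50 nM, between -0.69 and -0.62, and without it the differences were 0.51, 0.30 and 0.54. Initiation factor 5A (Myt01-003C09, 0.07), the EIF3A probe of initiation factor 3 (Myt01-006B07, 0.16) and poly(A)-binding protein (Myt01-005D09, -0.31) were among the members with small or opposite differences, and the sign of each turned when 1 mussel of 50 nM was left out. In RNA processing 11 of 16 probes were higher (median 0.37, 0.15 without replicate 3). The 200 nM mussels were nearly equal for small nuclear ribonucleoprotein B of the spliceosome (Myt01-002A11), at 0.79, 0.81 and 0.69 against 0.25, -0.07 and -0.74, a difference of 0.95 (0.40 to 1.50) that was 0.67 without replicate 3. RNA-binding protein 8A (Myt01-001G11), of the exon junction complex, differed by 0.78, and the helicase DDX42 (Myt01-017E11) by -0.60, both with groups apart.

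**Figure D4:**
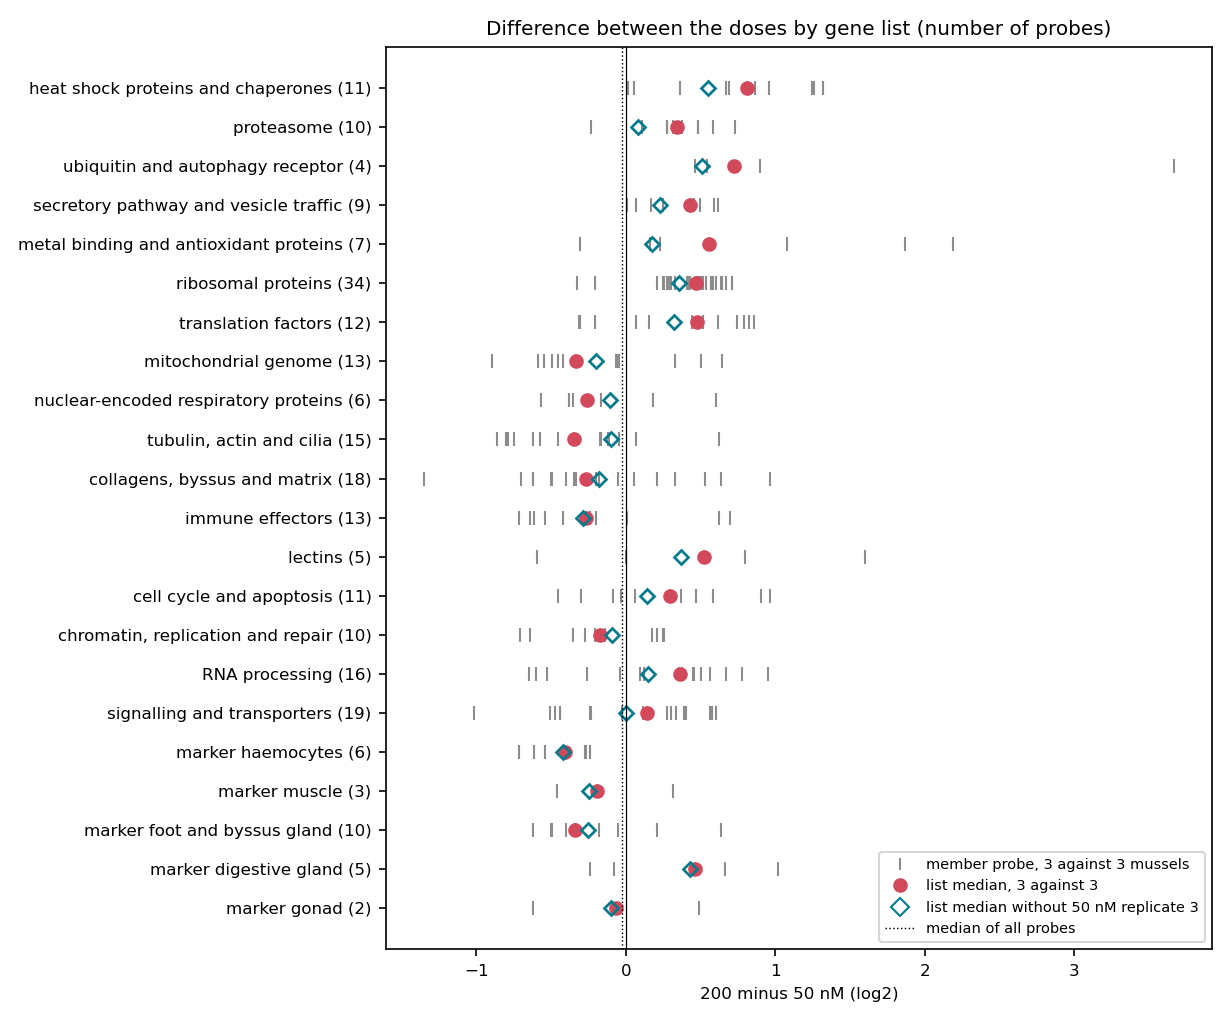
Difference between 200 and 50 nM (horizontal axis, log2) by gene list, with the number of probes in brackets, grey ticks for single probes, a filled circle for the list median with 3 against 3 mussels and an open diamond without 50 nM replicate 3. The medians of the chaperone (0.81 and 0.55) and ribosomal (0.47 and 0.36) lists lie above 0 either way, and that of the proteasome list is 0.35 and 0.08.

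Probes for the cytoskeleton and the cilia were mostly on the lower side at 200 nM. Of 15 probes for tubulin, actin and cilia 13 were lower (median -0.35). At an unadjusted p under 0.05, 4 were lower, beside 5.16% of all probes and 56 of the 434 that the study selected. Without 50 nM replicate 3 the median was -0.10. The list's median ratio was 0.32 in that mussel and between -0.70 and -0.15 in the others. Axonemal dynein intermediate chain 4 (Myt01-017C05), of the motor that bends the cilium, was at -0.22, 0.48 and 0.35 against -0.37, -0.71 and -0.72, a difference of -0.80 (-1.30 to -0.30; adjusted p = 0.368), and -0.73 without replicate 3. Tetratricopeptide repeat protein 25 (Myt01-001D11), which docks dynein on the axoneme, differed by -0.79 with the groups apart. Both probes for an axonemal dynein light chain of the p33 type went opposite ways, -0.86 (Myt01-011H07) and 0.62 (Myt01-006E09). In the first the 50 nM mussels were spread over -0.79, 0.06 and 0.56, and in the second replicate 3, at -0.51, lay below the others at 0.45. Beta tubulin (Myt01-003E07) was below the pool in every mussel but replicate 3, so its difference of -0.46 was -0.05 without it.

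Mitochondrial transcripts split by mussel. Of 13 probes for the mitochondrial genome 10 were lower at 200 nM (median -0.34), none at an unadjusted p under 0.05, and 1 of the higher ones, NADH dehydrogenase subunit 1 (Myt01-019B05; -0.24, -0.26 and -0.53 against 0.08, 0.39 and 0.42), was at such a p. Without replicate 3, 9 were lower, 3 of them at an unadjusted p under 0.05, beside 4.38% of all probes in that fit. These were ND6, cytochrome c oxidase subunit II and cytochrome b. ND6 (Myt01-019B08), a membrane subunit of complex I, was at 0.57, 0.78 and -0.75 in the 50 nM mussels and at 0.09, -1.13 and -1.05 at 200 nM. Here replicate 3 lay with the 200 nM mussels, so the difference was -0.90 with it (-1.83 to 0.03) and -1.37 without it (-2.18 to -0.57; adjusted p = 0.638). The other 2 gave -0.55 and -0.71 (subunit II, Myt01-019B11) and -0.59 and -0.88 (cytochrome b, Myt01-019B12), in which 8 and 10 of 24 spots over the 12 arrays were saturated in a channel. Cytochrome b was also represented by Myt01-010A03 (-0.06) and Myt01-011C05 (0.33). Of 6 nuclear-encoded respiratory probes 4 were lower (median -0.26, -0.11 without replicate 3). The electron transfer flavoprotein (Myt01-012B12), which feeds electrons from fat oxidation to the chain, was at -0.29, -0.72 and -0.15 against 0.46, 0.03 and 0.16, while ubiquinol-cytochrome c reductase subunit 6 (Myt01-009E02) differed by -0.38.

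**Figure D5:**
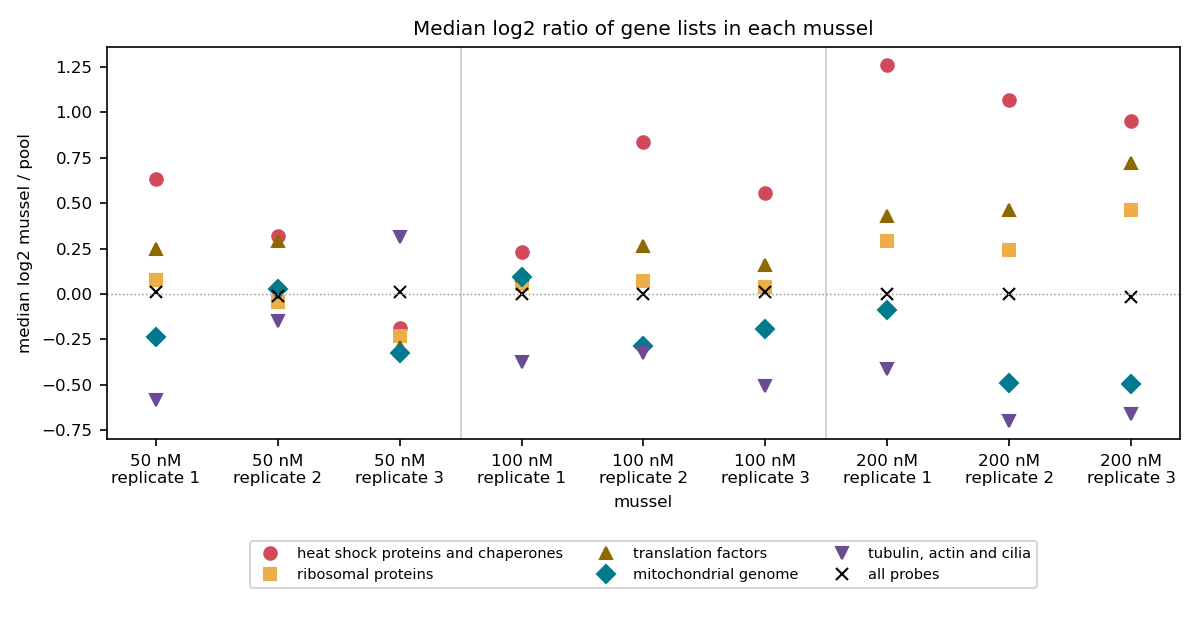
Median log2 mussel/pool ratio (vertical axis) of 5 gene lists and of all 1920 probes in each of the 9 mussels (horizontal axis, by dose and replicate). The chaperone median is between 0.95 and 1.26 at 200 nM and is -0.19 in 50 nM replicate 3, where that of tubulin, actin and cilia is 0.32.

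Collagen, byssus and matrix probes differed in both directions. Of 18, 12 were lower at 200 nM, 4 of these and 3 of the higher ones at an unadjusted p under 0.05 (median -0.27, -0.18 without replicate 3). Beside these stand 56 lower and 85 higher of the 434 probes that the study selected. Precollagen-P (Myt01-003F09), of the byssal threads, was at 0.07, -0.02 and 0.16 against -0.46, -0.32 and -0.49, and the collagen pro alpha-chain (Myt01-014E05) at 0.01, 0.34 and -0.14 against -0.16, -0.97 and -0.76. Other probes described as precollagen-P (Myt01-014D10 and Myt01-011B06) overlapped between the doses. Of the precollagen-D probes, Myt01-011H08 was higher at 200 nM (0.64) with the groups apart, and Myt01-015G12 overlapped. Collagen alpha-5(IV), of the basement membrane (Myt01-003G10), had the opposite order, with all 50 nM mussels at or below the pool and all 200 nM mussels above it (0.53). Among 13 immune effectors 10 were lower (median -0.27, -0.29 without replicate 3). Beta-microseminoprotein (Myt01-016C09) had close values in both groups, -0.14, -0.12 and -0.06 against -0.64, -0.87 and -0.73 (difference -0.64, -1.02 to -0.26; adjusted p = 0.328), and macrophage expressed protein (Myt01-006G09), a pore-forming protein of phagocytes, differed by -0.54 with the groups apart. Of the C1q domain proteins, which recognise foreign surfaces and had 6 probes, MgC1q4 (Myt01-015C12; 0.70) and MgC1q8 (Myt01-015F11; 0.62) were above 0 with overlapping groups, and MgC1q47 (Myt01-011H01) was at 0.01. MgC1q98 (Myt01-014G05; -0.24), MgC1q48 (Myt01-018E07; -0.20) and MgC1q89 (Myt01-015H10; -0.42) were below 0, the last with groups apart. The 5 lectins had a median of 0.52, 0.37 without replicate 3 and -0.14 with its sign turned. A C-type lectin (Myt01-007F08), of a family that binds sugars, was at -0.40 and -0.87 in 50 nM replicates 1 and 2 but at 0.49 in replicate 3, against 0.54, 0.39 and 0.68 at 200 nM, so that its difference of 0.80 was 1.17 without replicate 3 (0.54 to 1.81; adjusted p = 0.638).

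Of 11 cell cycle and apoptosis probes 7 were higher at 200 nM (median 0.29, 0.14 without replicate 3). GADD45 gamma (Myt01-006C05), which arrests the cell cycle after damage, was at 0.72, -0.36 and 0.04 against 1.71, 0.52 and 0.90, a difference of 0.91 (0.16 to 1.65), and 0.86 without replicate 3. Cyclin-dependent kinase 5 (Myt01-012C07) was higher by 0.58 with the groups apart. Inhibitor of apoptosis 1 (Myt01-007H08) turned its sign with replicate 3. It was at -1.80, -1.99 and 1.42 in the 50 nM mussels, between -1.74 and -1.43 at 100 nM, and at -0.93, -1.84 and -0.96 at 200 nM, so that its difference was -0.45 with this mussel and 0.65 without it. In chromatin, replication and repair 6 of 10 probes were lower (median -0.17, -0.10 without replicate 3), and INO80 complex subunit C (Myt01-003G12), of a chromatin remodeller, was the 1 with an unadjusted p under 0.05 (-0.13, 0.11 and 0.02 against -0.31, -0.91 and -0.70). Signalling proteins and transporters had no common direction, with 11 of 19 higher (median 0.14, and -0.00 without replicate 3, where 9 were higher). Calmodulin (Myt01-003H01), the calcium sensor, had the lowest difference among them, -1.02 (-1.55 to -0.48; adjusted p = 0.304), from -0.10, 0.13 and 0.49 against -0.70, -1.24 and -0.59. The dye orientations disagreed on its size, with -0.35 in arrays A and -1.69 in arrays B, and its arrays of 50 nM replicate 2 read -0.76 and 1.01. The 12 probes of the figure legend, which the study did not select by their response, lay between -0.51 and 0.40. Of them 1 was at an unadjusted p under 0.05, beside 10.2% of all probes. It was the lowest, cytoplasmic phospholipase A2 (Myt01-014H05; -0.51), which releases arachidonic acid from membranes.

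Probes without similarity to a known protein had an unadjusted p under 0.05 in 44 of 172 (25.6%), beside 32.5% of all probes in the study's tables. By the rule for naming genes, 6 of the first 10 in the upward direction and 4 of the first 10 in the downward direction were described as without similarity. Myt01-016D12 had the smallest p, with a difference of -2.07 ± 0.39 (SE; -2.92 to -1.22; adjusted p = 0.304), at 0.03, -0.18 and 1.20 in the 50 nM mussels, -0.63, -0.81 and -0.76 at 100 nM, and -2.54, -1.39 and -1.23 at 200 nM. As averages of arrays A and B, all 3 groups were apart from each other and in the order of the dose. Single arrays at 100 nM overlapped both other doses, with 0.12 in A and -1.73 in B of replicate 2. The difference between 200 and 50 nM was -1.64 without 50 nM replicate 3 (-2.40 to -0.89) and -1.27 with its sign turned. It was the lowest of all probes in both of the first fits, and with the sign turned the lowest was that of ND6 (-1.40). Myt01-002D04 (-0.19, -0.63 and -0.19 against 0.98, 0.86 and 0.31), Myt01-010C06 (-0.55, -0.39 and -0.14 against 0.29, 1.02 and 0.76) and Myt01-014H10 (-0.23, -0.34 and -0.32 against 0.73, 0.76 and 0.58) were below the pool in every 50 nM mussel and above it in every 200 nM mussel, with differences of 1.05, 1.05 and 0.99 that were 1.12, 1.16 and 0.98 without replicate 3. The first and second of them, with Myt01-002B06, were also among the first 5 in the upward direction without that mussel. These signs hold for averages of arrays A and B, which disagreed in some mussels. Myt01-002D04 read -0.51 and 0.14 in 50 nM replicate 1, 0.44 and -0.83 in replicate 3, and -0.15 and 0.76 in 200 nM replicate 3. Myt01-014H10 read -0.56 and 0.11 in 50 nM replicate 1 and 0.07 and -0.75 in replicate 2. Myt01-010C06 read -0.04 and 0.62 in 200 nM replicate 1. Others in the upward direction were Myt01-014C10 (1.71), Myt01-018B10 (1.24), Myt01-002B06 (1.06) and Myt01-015A03 (0.87), the last with no description. In the downward direction Myt01-017B09 (-1.13), the C5orf48 homolog (Myt01-003B05; -1.03), Myt01-004B07 (-0.88), the kyphoscoliosis peptidase (Myt01-012B04; -0.85), Myt01-012C01 (-0.84) and 6-phosphogluconolactonase of the pentose phosphate pathway (Myt01-015A11; -0.69) had groups that did not overlap. Without replicate 3 Myt01-015D11 (1.12), Myt01-013F11 (-1.21) and Myt01-003A09 (-1.02) joined the named probes. Myt01-008B03, which has no known similarity either and was named after its values were seen, was far apart within a dose, at -3.72, -2.78 and 4.48 in the 50 nM mussels against -2.28, -1.25 and -2.17 at 200 nM, and both arrays of replicate 3 gave the high value (4.13 and 4.83). Its difference was -1.22 with this mussel and 1.35 without it.

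Treating the arrays rather than the mussels as observations, with the mussel as a random block, gave other counts. With all 18 arrays 7 probes passed, 5 higher at 200 nM (HSP70, metallothionein-10B, elongation factor 1 gamma, Myt01-002B06 and Myt01-014C10) and 2 lower (Myt01-016D12 and Myt01-017B09), with adjusted p values of limma from 0.0149 to 0.0308. With the 12 arrays of 50 and 200 nM only, 2 passed, Myt01-002B06 and Myt01-016D12, both at 0.0417. These fits use 1 correlation between arrays of a mussel for all probes, 0.0701 and 0.120. In HSP70 arrays A and B of a mussel were no more than 0.34 apart, while the 50 nM mussels spanned 1.27.

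Markers of other tissues were read beside these lists. The haemocyte probes, of the blood cells that circulate through the gill, were lower at 200 nM in 6 of 6 (median -0.41, -0.42 without replicate 3), beside 53.7% of all probes. At an unadjusted p under 0.05 was 1, beside 5.16% of all probes and 56 of the 434 that the study selected. Their median ratio was -0.45, -0.57 and -0.44 at 200 nM against -0.25, -0.07 and -0.00 at 50 nM. All 6 are also among the immune effectors. Foot and byssus gland probes were lower in 8 of 10 (median -0.34), muscle in 2 of 3 (-0.20) and gonad in 1 of 2 (-0.07, with the zona pellucida domain protein Myt01-016A08 at -0.62). Digestive gland probes were higher in 3 of 5 (0.46), led by endochitinase (Myt01-012D02; -0.46, -0.28 and -0.60 against 0.10, 0.80 and 0.80) and vdg3 (Myt01-016C10; 0.66). The other 2, both glucanases, were lower. They were beta-1,4-endoglucanase (Myt01-016E07; -0.24, with groups apart) and endo-1,3-beta-D-glucanase (Myt01-016B08, with overlapping groups). These ratios to the pool do not give the amount of a tissue, no marker can be placed at 0 on such arrays, and the part of other cells in the differences was not tested.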

How the data were processed

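For each of the 18 arrays a scanner output was read, and 1 table with processed ratios served as an alternative. The scanner outputs give a deposited intensity per spot and channel, with local background not yet subtracted. In the deposited table the log2 ratios had been normalized by the authors (total intensity, then LOWESS). Over the 12 arrays of 50 and 200 nM the median spot intensity was 361 to 1334 in the mussel channel and 245 to 1450.5 in the pool channel, the 2 spots of a probe correlated at 0.327 to 0.632, and the ratios correlated with the authors' at 0.727 to 0.945. The number of mussels, 3 at each dose, limits the precision.

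Background was corrected by normexp (offset 50) and ratios by loess within each array (span 0.3, 4 iterations). The 2 spots, then arrays A and B, were averaged. A model with a mean for every dose was fitted to the 9 mussels (8 without 50 nM replicate 3) with limma 3.58.1 (R 4.3.3), and the contrast 200 minus 50 nM was adjusted over 1920 probes. Random blocks used statmod 1.5.0, tables and plots Python 3.11.15. The fit was tested on simulated data.

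Named were members of the gene lists, probes that the paper names, and, among probes whose mussels did not overlap between the doses, the 10 with the smallest p in each direction, and the 5 without 50 nM replicate 3. Members and lists were chosen with earlier results of these data known. Alternatives were other background corrections and normalizations, the authors' values, single dye orientations, leaving out mussels, array weights, a replicate block, filters and random blocks.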

Additional observations from a re-analysis of the deposited data

Results flagged for a closer look

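In 31 of 1920 probes every 50 nM mussel was below the control pool and every 200 nM mussel above it. In 25 of 1920 the reverse held. The mussel values are averages of arrays A and B, and single arrays of a mussel could have opposite signs, as in Myt01-002D04. How many probes would have these patterns by chance was not tested. Among the probes named above, 10 had the first pattern, with no adjusted p of limma under 0.304. They were Myt01-002D04 (difference 1.05), Myt01-010C06 (1.05), endochitinase (Myt01-012D02, 1.02), Myt01-014H10 (0.99), Myt01-015A03 (0.87), elongation factor 1 gamma (Myt01-012F11, 0.75), NADH dehydrogenase subunit 1 (Myt01-019B05, 0.64), the electron transfer flavoprotein (Myt01-012B12, 0.60), ribosomal protein S7 (Myt01-014A05, 0.58) and collagen alpha-5(IV) (Myt01-003G10, 0.53). The reverse held for Myt01-012C01 (-0.84) and 6-phosphogluconolactonase (Myt01-015A11, -0.69). Groups of 3 mussels were too small to look for single outlying values.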

How the results depend on the processing

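No probe passed in 23 of 25 alternatives, in which the smallest adjusted p of limma was 0.0503 (without 50 nM replicate 1) to 0.834 (arrays A only). The exceptions were the random blocks, with 7 probes over 18 arrays and 2 over 12. Without 50 nM replicate 3 no probe passed in any of 21 alternatives (smallest adjusted p 0.118 to 0.998). At an unadjusted p under 0.05 there were 105 probes with arrays A only, and 137 to 257 when 1 mussel was left out. Of 95 named differences 85 kept their sign throughout. Inhibitor of apoptosis 1 (Myt01-007H08) was 0.65 without 50 nM replicate 3 and 0.49 with its sign turned, and Myt01-008B03 was 1.35 and 1.76. With 1 mussel left out they ranged over -1.05 to 0.65 and -2.75 to 1.35, Myt01-005H11 over -1.06 to 2.63 (lowest without 200 nM replicate 2), initiation factor 5A (Myt01-003C09) over -0.14 to 0.20, EIF3A (Myt01-006B07) over -0.19 to 0.47, poly(A)-binding protein (Myt01-005D09) over -0.53 to 0.0671, cytochrome b (Myt01-010A03) over -0.15 to 0.0376 and MgC1q47 (Myt01-011H01) over -0.31 to 0.38. With the sign of 50 nM replicate 3 turned EIF3A was -0.14 and MgC1q47 -0.21. With arrays A only Myt01-003A09 was 0.00380 and EIF3A -0.00771, and with arrays B only initiation factor 5A was -0.0700, MgC1q47 -0.17 and MgC1q48 (Myt01-018E07) 0.0465. Initiation factor 5A was -0.11 with print-tip loess and -0.15 with the authors' values. The cause was not tested. List medians kept their sign except for lectins (down to -0.14), signalling (down to -0.03), chromatin (up to 0.00400) and gonad (up to 0.05). Mussels of 50 and 200 nM with the same replicate number correlated at 0.15, -0.10 and 0.11 in their deviations from the dose means. Only replicate 1 of 50 nM correlated best with its own number. With 3 mussels a dose these values cannot tell whether equal numbers share a batch. With the replicate block 0 probes passed and 201 had an unadjusted p under 0.05.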
